A study of Mus musculus with 8 samples.

Results

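In activated mouse CD4+ T cells, 650 sites of Smad4 chromatin immunoprecipitation (ChIP) lay in gene deserts, far from any protein-coding gene, and were called in both wild-type (WT) libraries and in neither Smad4 knockout (KO) library. They made up 650 of the 15882 WT-only regions of the series, or 4.16% of the 15635 on autosomes (95% exact Clopper-Pearson interval 3.85% to 4.48%). The members were chosen from peak positions alone. Peaks of the WT lists that overlapped by at least 1 bp were merged, merged regions that held a peak of both lists were called reproducible, and those that met a KO peak were removed. A region stayed if it was autosomal, had its centre outside every protein-coding gene and lay over 100 kb from the nearest gene end. Presence in WT and absence in KO are therefore how the regions were found, and are not results.

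The 4 ChIP libraries came from CD4+ T cells of spleen and lymph nodes of C57BL/6 mice. All cells were activated and, at 12 h, had been treated with interleukin 6 (IL6) together with an inhibitor of the TGF-β receptor (TGFbR), so no group without the inhibitor was compared. The WT group held 2 libraries, WT 1 and WT 2, both labelled female. The KO group held 2 libraries of genotype CD4cre;Smad4fl/fl, in which a Cre recombinase under Cd4 control deletes a floxed Smad4 allele in T cells; KO 1 mixed male and female animals and KO 2 was male. Genotype and sex cannot be told apart, and the labels do not say whether replicates were separate animals, so spreads may be technical. The 4 matching input samples were not analysed here. The samples are bulk chromatin, in which fewer bound cells and less binding per cell cannot be told apart.

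Smad4 is the partner shared by the SMAD proteins of the TGF-β and BMP pathways. It binds short GTCT-containing elements, usually beside cell-type-specific factors, and the co-repressors SKI and SnoN bind it to hold target genes silent. Gene deserts are long stretches without coding genes. Many carry distal enhancers and long noncoding RNA (lncRNA) genes, and those beside developmental and immune regulators often control the gene at their edge through looping. Nearness alone does not identify a target gene.

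Peak totals were 27120 and 19792 in WT 1 and WT 2, and 564 and 424 in KO 1 and KO 2. All 8 CD4+ T cell marker genes had a reproducible WT region within 10 kb, as did 5 of 10 B cell, 3 of 12 myeloid and 1 of 10 hepatocyte markers. The share over all coding genes was not taken, so these counts have no background here and do not identify the cells. The lists give positions only, with no height or score, and read depth is unknown; peak width is the sole size measure.

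Part of the desert set lay on the start of an lncRNA gene, and those sites have a RefSeq promoter sequence that can be read. Windows from 250 bases before to 50 bases after the start of 18 genes, 21 windows in all, met a desert region, and every one of these genes was an lncRNA. The windows of the 4 lncRNA genes with the widest WT peaks are shown, since these are the sites at which bases under a desert peak can be given. Each lay wholly inside its region. Capitals mark CAGACA on either strand (TGTCTG on the other), a SMAD-type element, and TGANTCA, an AP-1 type element; the SMAD-type elements GTCTAGAC and GGCGCC were also searched for and had no match in these 21 windows. The sequences are from RefSeq on GRCm38.p6, 5′ to 3′ on the strand of the gene: Gm36154 at chr2:128466466-128466765 (minus), Gm26901 at chr1:7398047-7398346 (minus), Gm29010 at chr2:128433460-128433759 (plus) and Gm36372 at chr12:16210309-16210608 (minus).
Gm36154: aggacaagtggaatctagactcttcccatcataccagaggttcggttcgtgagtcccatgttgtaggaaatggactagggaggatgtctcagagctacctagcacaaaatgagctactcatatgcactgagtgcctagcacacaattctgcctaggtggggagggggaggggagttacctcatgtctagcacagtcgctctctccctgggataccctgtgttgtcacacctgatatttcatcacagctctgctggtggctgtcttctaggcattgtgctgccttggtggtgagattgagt
Gm26901: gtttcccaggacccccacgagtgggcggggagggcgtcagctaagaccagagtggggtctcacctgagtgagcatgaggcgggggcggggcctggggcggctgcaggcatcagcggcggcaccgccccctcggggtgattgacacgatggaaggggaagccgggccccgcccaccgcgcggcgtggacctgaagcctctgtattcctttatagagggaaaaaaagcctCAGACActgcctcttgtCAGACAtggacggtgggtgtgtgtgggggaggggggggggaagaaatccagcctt
Gm29010: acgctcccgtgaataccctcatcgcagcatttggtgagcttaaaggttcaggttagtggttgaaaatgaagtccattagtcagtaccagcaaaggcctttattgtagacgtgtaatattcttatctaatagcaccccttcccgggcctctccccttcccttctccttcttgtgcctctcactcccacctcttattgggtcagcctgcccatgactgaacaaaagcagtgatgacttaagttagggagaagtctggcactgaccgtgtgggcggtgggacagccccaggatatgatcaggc
Gm36372: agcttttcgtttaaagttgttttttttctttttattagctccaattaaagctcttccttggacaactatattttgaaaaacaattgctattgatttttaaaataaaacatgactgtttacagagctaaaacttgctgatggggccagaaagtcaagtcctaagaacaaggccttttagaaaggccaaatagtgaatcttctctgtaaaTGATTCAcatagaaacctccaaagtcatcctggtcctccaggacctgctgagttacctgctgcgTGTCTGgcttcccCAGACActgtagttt

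Gm36154 and Gm29010, both between Bcl2l11 and Spdye4c, held none of these 4 elements. Gm26901 held CAGACA at 2 places close together near the start. Gm36372, between Trib2 and Lpin1, held 2 SMAD-type elements on opposite strands and 1 AP-1 type element. Over all 21 windows, 6 (28.6%) held CAGACA, against 21.0% of all 32851 promoter windows in the table, and 6 (28.6%) held TGANTCA, against 7.81%. TGTGGT, a RUNX-type element, was in 7 windows (33.3%; all promoters 16.8%) and GGAAGT, an ETS-type element, in 3 (14.3%; all promoters 23.8%). Both strands were searched for each element and matches could overlap. These windows are few and 2 genes supply more than 1, so the shares are descriptions, and a match is not a shown binding site. Whole windows were searched, though some lay only partly in the region. That of Gm17767 had 68 of its 300 bases inside, and its CAGACA lay outside the region. LOC115487176, Gm46116 and Gm5122, each with a TGANTCA window, all lie between Uaca and Tle3. GGCGCC, in none of the desert windows, was in 11.9% of all windows. GTCTAGAC was in only 0.213% of all windows, so its absence from 21 windows says little. In the 784 lncRNA windows that met other WT-only regions, the shares were 17.0% for CAGACA, 7.65% for TGANTCA, 14.3% for TGTGGT, 28.1% for GGAAGT and 25.8% for GGCGCC.

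Smad4 regions thinned out with distance from genes, and the desert set was the far end of that decline. WT-only regions numbered 10.7 per Mb at 0 to 20 kb from a coding gene, 4.69 at 20 to 50 kb, 2.98 at 50 to 100 kb, 2.03 at 100 to 150 kb and 2.05 at 150 to 200 kb. Density then fell to 1.14 per Mb at 200 to 300 kb, 0.605 at 300 to 500 kb and 0.139 beyond 500 kb, where 28 members lay. The 100 kb limit thus cuts a gradual slope. Deserts made up 654 Mb, or 27.3% of the 2398 Mb between the outermost autosomal coding genes, and held 0.992 members per Mb; the rest of that span held 8.59 WT-only regions per Mb, which is 8.66-fold denser. The median distance of a member from its nearest coding gene was 175 kb, and 404 members (62.2%) lay under 200 kb.

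**Figure D1:**
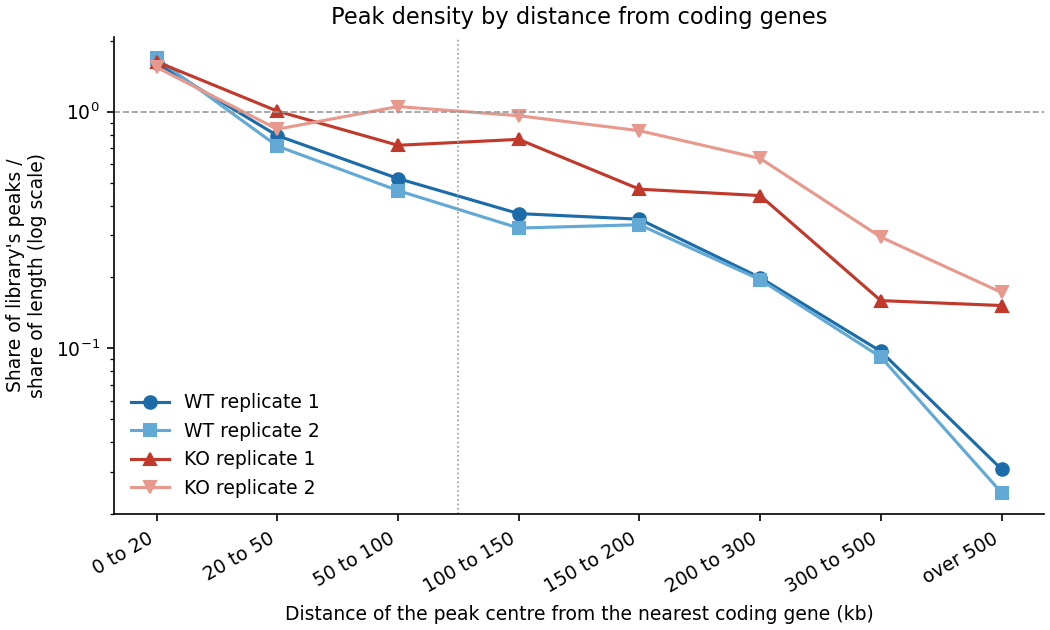
Share of each library's autosomal peaks that lay outside coding genes at each distance, divided by the share of the autosomal span at that distance (y axis, log scale), by distance of the peak centre from the nearest coding gene in kb (x axis); the vertical line marks 100 kb and the horizontal line equal shares. Both WT lines drop to 0.0308 and 0.0245 beyond 500 kb, and both KO lines lie above them at every distance over 100 kb.

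At the limit itself, the last regions left out lay 99.4 kb from Ado (chr10:67648104-67648675, peaks of 572 and 242 bp in WT 1 and WT 2) and 99.6 kb from Gm52008 (chr12:107011246-107011708, 376 and 352 bp). The first taken in lay 100.03 kb from Pabpc2 (chr18:39875868-39876359, 492 and 304 bp) and 100.7 kb from Cog6 (chr3:52880767-52882142, 1376 and 824 bp). Width did not separate the sides of this limit. Moving the limit changed the set size by more than any other setting on distance, to 1191 regions at 50 kb and 246 at 200 kb.

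Desert regions were unevenly spread over deserts, and several of the fullest border genes that control T cell identity. There were 1376 autosomal deserts. A member lay in 188 of them (13.7%), and 81 of these held a single one. At the other extreme, 18 deserts held 10 or more and together 252 members (38.8%). The 10 fullest held 167 members (25.7%) in 0.880% of the desert length. Deserts with a member had a median length of 360 kb and those without 199.8 kb.

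The fullest desert ran from Myc, which encodes the growth factor-induced transcription factor MYC, to the gasdermin gene Gsdmc on chromosome 15. It had 66 peaks in WT 1, 41 in WT 2, 3 in KO 1 and 2 in KO 2, and 32 members over 1586 kb. Since the deserts are ranked by their WT-only regions, and the KO lists are short throughout, the gap between WT and KO counts in this and the following deserts is a description of how they were chosen. Mouse blood cells are known to use distal Myc enhancers in this stretch. Its members fell into separate groups, as the map of the 10 fullest deserts shows: a run of 18 at chr15:62144965-62484420, beginning inside the lncRNA gene Pvt1, and a run of 12 at chr15:62698504-62837372. A run is a chain of members whose neighbouring centres are at most 50 kb apart. The widest members here were chr15:62734343-62736378, 745 kb from Myc (2036 and 1446 bp in WT 1 and WT 2), and chr15:62481975-62484420, 493 kb from it (2466 bp in 2 slightly overlapping peaks, and 876 bp). The desert on the other side of Myc, towards A1bg, held 11 members, with 17, 18, 2 and 1 peaks in WT 1 and WT 2 and KO 1 and KO 2. Counted over both sides, Myc was the nearest coding gene of 37 members, more than any other gene.

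Trib2, which encodes a pseudokinase of the Tribbles family, bordered the desert with the widest member of all. The region at chr12:16006283-16010172, 191 kb upstream of Trib2, was 3890 bp wide in WT 1 and 2850 bp in WT 2. It covered part of the lncRNA gene Gm36235. The desert from Trib2 to Lpin1, a phosphatidate phosphatase gene, had 29 and 18 peaks in WT 1 and WT 2 and none in either KO library. All 17 of its members formed 1 run of 283 kb at chr12:15928497-16211059, which ended at Gm36372, the lncRNA gene whose promoter is printed above.

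Deserts beside transcription factor genes of lymphocytes were among the fullest. Id2, which encodes an inhibitor of E proteins, was the nearest gene of 14 members, all upstream of it; its desert towards Rnf144a held 19 members, with 30, 22, 1 and 2 peaks in WT 1 and WT 2 and KO 1 and KO 2. Foxo1, a factor of naive T cell homing and survival, shared with Cog6 a desert of 18 members, with 34, 24, 1 and 0 peaks in the same order. Satb1, a chromatin organiser of T cells, had 16 in the desert towards Kcnh8 (26, 21, 2 and 1 peaks), and the 12 nearest to it were all upstream.

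Runx1, a RUNX factor needed for T cell development, had 12 members in the desert upstream of it, with 22 and 16 peaks in WT 1 and WT 2 and none in KO. Ets1, a lymphocyte ETS factor, had 11 members, with 19, 13, 1 and 0 peaks. The widest lay 184 kb away at chr9:32940531-32942462 (1932 and 1560 bp), and 4 others lay in the lncRNA gene Gm27162. Gata3, the factor that directs Th2 cells, had 10 members, all downstream and as far as 946 kb, with 23, 18, 2 and 3 peaks in its desert towards Celf2. Bcl6, which encodes a transcriptional repressor, bordered 10 members, with 15 and 13 peaks in WT and none in KO. Neighbouring wide regions led there: chr16:24153961-24156085 (2090 and 1690 bp, 166 kb upstream) and chr16:24150822-24152373 (1552 and 1424 bp).

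**Figure D2:**
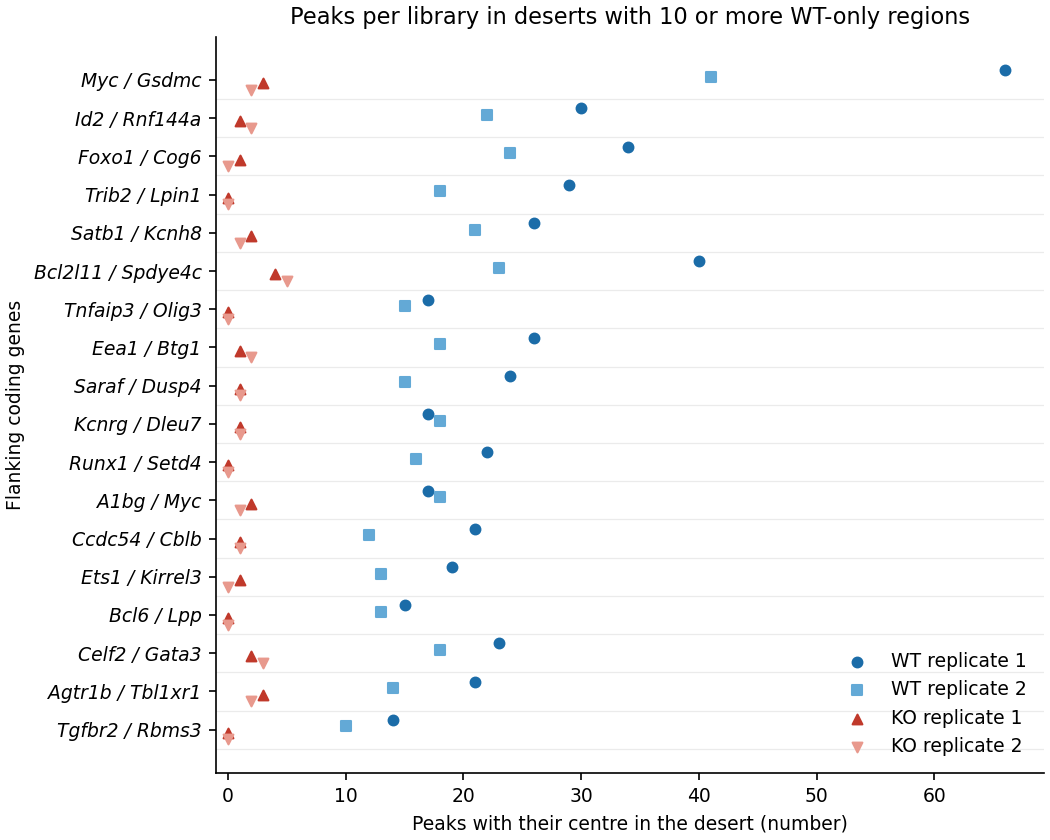
Number of called peaks with their centre in each of the 18 deserts with 10 or more members, per library; each row is a desert named by its flanking coding genes. The rows were chosen by their WT-only regions, which sets the gap between WT and KO; the WT counts run from 10 to 66 and the KO counts up to 5.

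Tnfaip3, which encodes the NF-κB inhibitor A20, shared with the neural gene Olig3 the densest of the fullest deserts, 13 members in 141 kb or 92.1 per Mb. It had 17 and 15 peaks in WT 1 and WT 2 and none in KO. The members formed 1 run with a median of 2.97 kb between centres, and 7 of them lay in the lncRNA gene Gm20139. The widest peaks were 990 and 912 bp, so these were many modest regions and no dominant one. Between Dusp4, a MAP kinase phosphatase gene, and Saraf lay 13 members (24, 15, 1 and 1 peaks), and between Btg1, an antiproliferative gene, and Eea1 another 13 (26, 18, 1 and 2). The widest beside Btg1 by summed peak width lay 243 kb upstream of it at chr10:96373107-96375330 (1996 and 1488 bp in WT 1 and WT 2). Cblb, which encodes a ubiquitin ligase that limits T cell activation, was nearest to 11 members, all upstream. Its desert towards Ccdc54 had 21, 12, 1 and 1 peaks, and the widest member there lay 340 kb from Cblb at chr16:51690515-51691652 (1138 and 1004 bp in WT 1 and WT 2).

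Bcl2l11, which encodes the pro-apoptotic protein BIM, bordered the desert with the highest KO counts among the 18 fullest. This desert towards Spdye4c had 40, 23, 4 and 5 peaks in WT 1 and WT 2 and KO 1 and KO 2, and held 14 members beside 6 reproducible WT regions that were also called in KO. Members and KO-called regions were interspersed over 180 kb (chr2:128294824-128474975). The lncRNA gene Morrbid, known in mouse for control of Bcl2l11, covered 9 of the members, and Gm36154 and Gm29010 covered 3. The widest member lay outside them all, at chr2:128294824-128297220, 133 kb downstream of Bcl2l11, with peaks of 2162 and 2286 bp.

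Tbl1xr1, which encodes a subunit of the NCoR and SMRT co-repressor complexes, was nearest to 9 members, all upstream and all 112 to 192 kb away. Its desert towards Agtr1b had 21, 14, 3 and 2 peaks in WT 1, WT 2, KO 1 and KO 2. Wide members lay side by side in the lncRNA gene Gm31813, at chr3:21961504-21963359 (1750 and 1856 bp in the WT libraries) and chr3:21952361-21953866 (1506 and 1156 bp). Ptger4, which encodes the prostaglandin E2 receptor EP4, was nearest to 8 members upstream of it, 188 to 515 kb away; its desert towards Dab2 had 15, 13, 2 and 1 peaks. Klf6, a Krüppel-like factor gene, was nearest to 8, of which 6 lay upstream and 2 downstream. Between Kcnrg, a potassium channel regulator gene, and Dleu7 lay 12 members (17, 18, 1 and 1 peaks), led by chr14:61818195-61819982 (1700 and 1178 bp). Beside Klf14, a region of 2262 and 1202 bp (chr6:31125250-31127511) lay in the lncRNA gene Lncpint.

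Genes of the TGF-β pathway were represented by a few. Tgfbr2, which encodes the type II TGF-β receptor, was nearest to 9 members, all upstream; the desert towards Rbms3 held 10, with 14 and 10 peaks in WT and none in KO. They formed 1 run of 91.1 kb at chr9:116293583-116384637, led by chr9:116293583-116295214 (1632 and 1106 bp, 119 kb from Tgfbr2). Pmepa1, whose product sequesters SMAD proteins at membranes, had a member 109 kb away at chr2:173385074-173386733 (1660 and 1106 bp). Acvr2a, an activin receptor gene, had 3, of which the widest by summed peak width lay 492 kb upstream at chr2:48321912-48323027 (862 and 1116 bp). Of 13 genes of the pathway list that border a desert, the other 10 were nearest to no member, Smad1, Smad2 and Bambi among them.

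**Figure D3:**
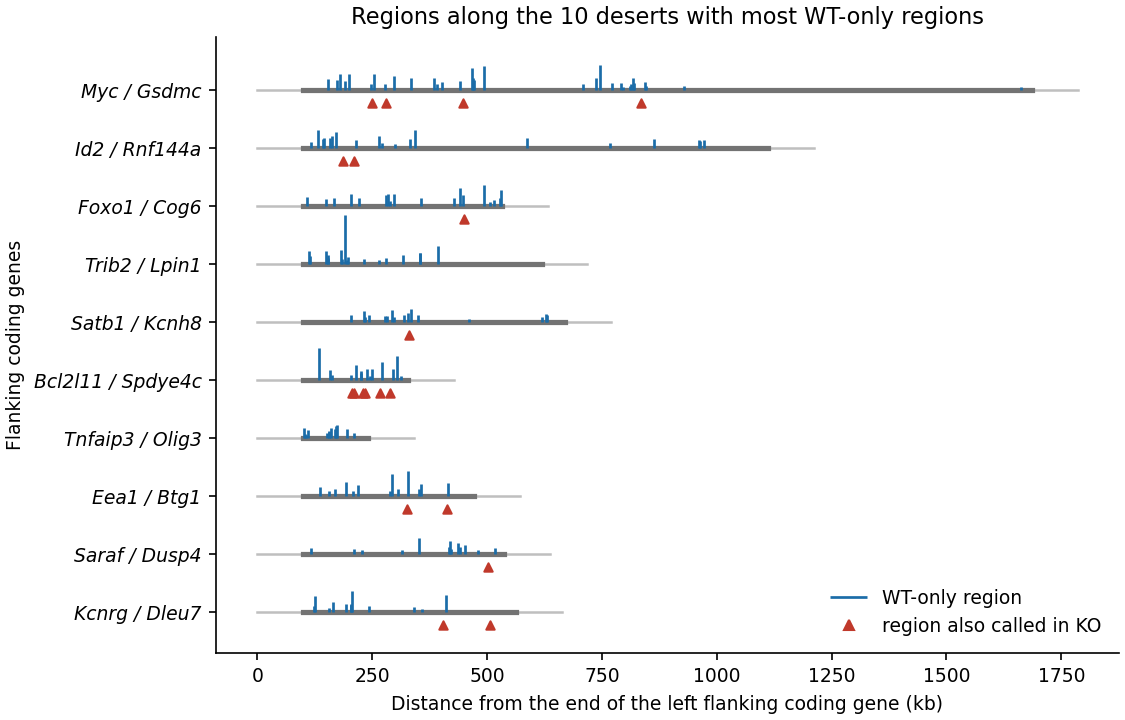
Positions of WT-only regions (blue ticks, height by region width) and of reproducible WT regions also called in KO (red triangles) along the 10 deserts with most members, as distance from the left flanking coding gene; thick grey marks the desert and thin grey the 100 kb on each side. Regions cluster in runs, as in the 110 kb run between Tnfaip3 and Olig3 and the 2 runs beyond Myc.

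Many of the genes at desert borders that regulate T cells were the nearest gene of a member. Of 2344 autosomal coding genes that border a desert, 231 (9.85%) were. Of the T cell transcription factor genes, 11 of 17 were (64.7%): Bcl11b, Ets1, Runx1, Lef1, Gata3, Satb1, Tox, Id2, Bcl6, Prdm1 and Foxo1, nearest to 87 members (13.4%) in all. Several of these genes had few members: Lef1, a Wnt pathway factor, had 3 (the widest with 490 and 656 bp), Bcl11b, a T lineage factor, had 3 (792 and 704 bp), Tox, a factor of exhausted T cells, had 4 (498 and 570 bp) and Prdm1, which encodes Blimp-1, had 1 (442 and 304 bp). Ikzf2, Bach2, Foxp1, Zeb1, Zeb2 and Eomes border a desert without being nearest to a member. Of the activation factors, Jun, Myc, Tnfaip3 and Dusp6 were nearest to 54 members (4 of 9 genes). Jun, an AP-1 subunit gene, had 4, all upstream, the widest on the lncRNA gene Junos at chr4:95160842-95161745 (904 and 612 bp). Dusp6, a phosphatase gene of the ERK pathway, had 4, all downstream, of which chr10:99416659-99417327 was the widest (568 and 620 bp). The lists were chosen with earlier results of these data known, and the shares carry no test.

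The Th17 and IL-6 response list, which bears on the treatment, had 2 of 4 genes. Ahr, the aryl hydrocarbon receptor gene, bordered 7 members and was nearest to 4 of them. The widest of the 7 was chr12:35799084-35799837 (754 and 708 bp), nearer to Agr3. Nfkbiz, which encodes IκBζ, bordered 3 and was nearest to 2 of them, led by chr16:55636123-55637534 (1106 and 1126 bp, 175 kb away). Rora and Maf border a desert but were nearest to none. Of the cytokine and receptor list only Ifng was nearest to members (1 of 3 genes), at 143, 147 and 188 kb downstream. In WT 1 these 3 regions had peaks of 240, 362 and 386 bp, and in WT 2 of 380, 242 and 444 bp. In the surface and homing list, 2 of 5 genes were nearest to a member: the integrin gene Itga4 and the chemokine receptor gene Cxcr4. Cxcr4 had 6 members, all upstream, of which chr1:128786538-128787859 was the widest (1018 and 996 bp).

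The lists of development and of other cell types were also counted. Of 25 developmental regulators that border a desert, 1 was nearest to a member, Sox4, which lymphoid cells also express; it had 4. Sox9, Pax6 and Shh were among those nearest to none, though Sox9 and Sox2 flanked members that lay nearer to another gene. Counted by flanking a member, the developmental list had 3 of 25 genes and the neuronal list 2 of 19. The T cell transcription factors had 14 of 17 by that count. Csmd1 was the only one of 19 neuronal genes, with a single narrow member (310 and 242 bp) 373 kb away. Cebpb, the single desert gene of the myeloid list (1 of 1), bordered 1 member, while Ebf1 on the B cell list and Apob on the hepatocyte list, the single desert genes of their lists, had none. Joined, the 6 T cell and pathway lists gave 23 of 51 genes (45.1%) and 172 members (26.5%), and the 5 other lists 3 of 47 genes (6.38%) and 6 members (0.923%).

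**Figure D4:**
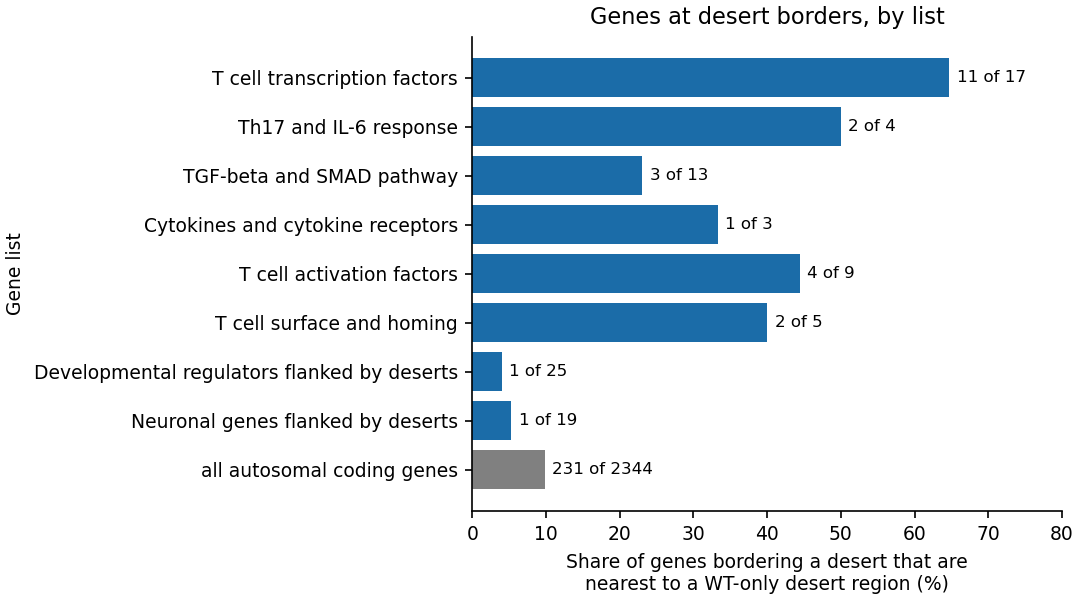
Percent of the genes bordering a desert that are the nearest coding gene of a WT-only desert region, by gene list, with counts beside the bars; grey is all autosomal coding genes. The T cell transcription factors reach 64.7%, the developmental regulators 4% and all coding genes 9.85%.

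Members tended to lie near each other. Of the 650, 482 (74.2%, interval 70.6% to 77.5%) had another member within 50 kb; they formed 117 runs of at least 2, of which 33 held 5 or more and 7 held 12 or more. Inside runs the median step was 10.5 kb. Spacing was close to that elsewhere: another WT-only region of any place lay within 50 kb for 76.6% of members, 82.7% of WT-only regions 20 to 100 kb from genes and 81.1% of those inside genes. Desert regions were thus rare per Mb, yet the share with a neighbour within 50 kb was only somewhat lower than near genes. These shares were not adjusted for the lower density in deserts, so they do not compare the degree of clustering. Members in runs of 5 or more were wider, with a median of 692 bp (interval 637 to 746), than the 168 isolated ones, with 510 bp (480 to 562).

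Where strand was known for the nearest coding gene, members lay upstream of it more often than downstream, 302 of 480 (62.9%, interval 58.4% to 67.3%) against 178 (37.1%). Regions of 1 run share their gene, so they are not independent. The side was unknown for 170, among them the 37 members nearest to Myc. The upstream share of other WT-only regions was not taken, so 62.9% has no background here. The 5 most distant members were 856 to 1323 kb from a coding gene. The farthest, beyond Ncam2 on chromosome 16 (chr16:82947471-82947950), had peaks of 450 and 430 bp. Next came a region in the immunoglobulin heavy chain locus (chr12:114990790-114991353), where gene segments are not tagged as coding. A pair downstream of Gata3 and 1 near Gsdmc completed the 5.

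Many members lay on a noncoding gene. There were 216 of them (33.2%, interval 29.6% to 37.0%), 205 of them on an lncRNA gene, whereas noncoding genes covered 12.8% of the desert length. The share was 29.3% for WT-only regions 20 to 100 kb from genes, 20.8% within 20 kb and 9.76% inside coding genes. Gm31813, upstream of the co-repressor gene Tbl1xr1, and Morrbid each covered 9 members, Gm20139 and Pvt1 each 7, and Lncpint 6. Ends of noncoding genes were met by 26 members (4%), the widest at Gm36154 and Gm26901. No member met a miRNA gene (0 of 650, exact interval up to 0.566%). The lncRNA genes tagged here are annotations, and their expression was not measured. Counting noncoding genes as genes left 41 desert regions, so most of the set is remote from coding genes only.

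The label of a desert did not hold for 10 members. Of these, 6 lay in antigen receptor loci, 3 in Rnls, which the gene table tags as a transcribed pseudogene, and 1 at the ribosomal RNA pseudogene Rn18s-rs5 (chr17:39846324-39846993). Leaving them out gave 640 regions.

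Desert regions were somewhat narrower than other WT-only regions. Their median width was 596 bp (interval 570 to 618, range 243 to 3890), against 649 bp (642 to 656) for other autosomal WT-only regions and 754 bp (741 to 768) for those within 1 kb of a coding gene end. Regions 20 to 100 kb from genes had 610 bp (584 to 630), whose interval overlaps that of the desert set. Over 1000 bp were 89 members (13.7%), against 22.5% of the others. The removal of KO-called regions took wide regions more often in deserts. In the highest quartile of summed peak width it took 25.5% of desert regions, against 7.94% outside deserts. Of the 65 desert regions removed, 33 (50.8%) were over 1000 bp. The part of this removal in the width difference was not tested. Peaks were wider in WT 1 than in WT 2 in 470 members (72.3%), with medians of 557 and 438 bp. The median log2 ratio was 0.31 (0.26 to 0.34), against 0.20 for all autosomal WT-only regions outside deserts. Regions 20 to 100 kb from genes were closer to the desert set, with 71.7% wider in WT 1. Their ratio was 0.25 (0.23 to 0.28), whose interval overlaps that of the members. Over the 650 members the widths in WT 1 and WT 2 had a Spearman rho of 0.69; all points share 2 libraries and a smallest peak width.

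**Figure D5:**
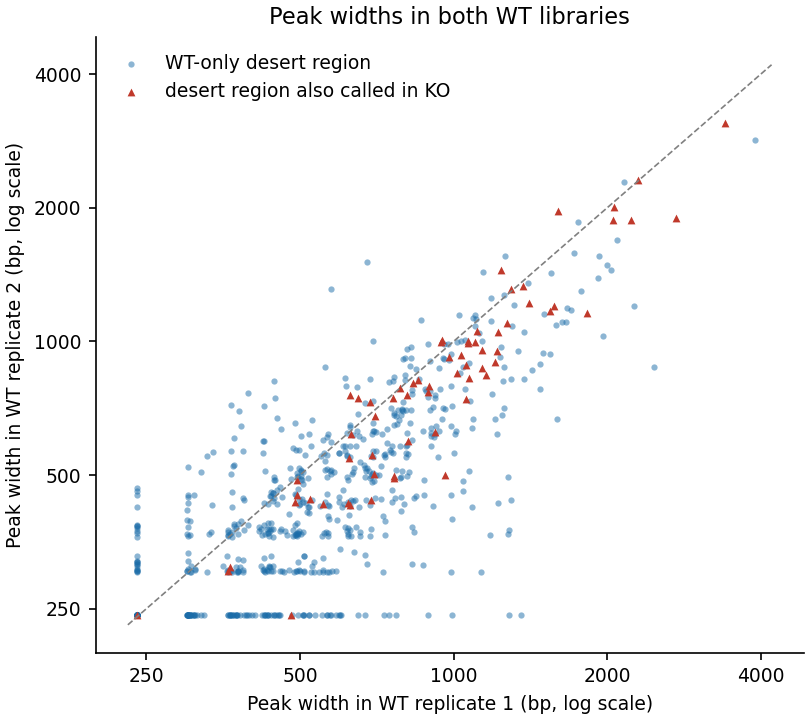
Peak width in WT 1 against WT 2 in bp, both on log scales, for the 650 WT-only desert regions (blue) and the 65 desert regions also called in KO (red); the dashed line marks equal widths. Points line up at the smallest widths, 240 and 242 bp, and the red points lie towards the wide end with a median region width of 1008 bp.

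Deserts also held reproducible WT regions that were called in KO, and these were wide. Of 715 reproducible WT regions in deserts, 650 (90.9%) met no KO peak and 65 met one: 21 in KO 1, 20 in KO 2 and 24 in both. On all autosomes the WT-only share was 96.2% and outside deserts 96.5%. Put the other way, a KO peak was met by 9.09% of desert regions (interval 7.09% to 11.4%), 5.75% of regions 20 to 100 kb from genes, 3.53% within 20 kb and 3.15% inside genes. Since this contrast chose the members, it is given without a test. Without WT 2 the desert share was 5.56%, without KO 1 6.15% and without KO 2 6.29%, each from a changed number of lists. Among desert regions in the highest quartile of summed peak width the share was 25.5% (37 of 145), against 7.94% (310 of 3904) outside deserts. In the lowest quartile it was 1.94% (4 of 206, interval 0.532% to 4.90%), against 0.744% (29 of 3899, 0.499% to 1.07%). In the next quartile it was 3.78% (7 of 185, 1.53% to 7.64%), against 1.72% (66 of 3845, 1.33% to 2.18%). In the quartile after that it was 9.50% (17 of 179, 5.63% to 14.8%), against 3.66% (142 of 3884, 3.09% to 4.30%), and these intervals did not overlap. The desert value was the higher one in each quartile of width. In the lowest quartile and the one next to it, the intervals overlapped and the desert counts were small.

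The KO-called desert regions lay in the same deserts as members in most cases, 58 of the 65 in 38 deserts. By summed width of the KO peaks, the leading region called in both KO libraries was chr5:53401707-53402770, 124 kb from Smim20 on the side of Rbpj, the Notch effector gene, with peaks of 2302, 2310, 530 and 1064 bp in WT 1 and WT 2 and KO 1 and KO 2. The next, chr3:21935870-21936453 near Tbl1xr1, had 1602, 1970, 584 and 468 bp. At both, each WT peak was wider than each KO peak. Others were chr2:128451477-128452010, in the Bcl2l11 desert (1066, 992, 534 and 506 bp), chr15:50361720-50362243 near Trps1 (760, 744, 524 and 490 bp) and chr10:96370839-96371414 near Btg1 (1240, 1448, 576 and 422 bp). The KO lists had 23 desert regions in common, and 22 of these overlapped a reproducible WT region.

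Over whole lists, deserts took a larger share of KO than of WT peaks. In WT 1, 1278 autosomal peaks lay in deserts (4.79%, interval 4.53% to 5.05%), and in WT 2 854 (4.39%, 4.11% to 4.69%). In KO 1 it was 53 peaks (9.60%, 7.27% to 12.4%) and in KO 2 59 (14.1%, 10.9% to 17.9%). Both KO shares lay above both WT shares, with means of 4.59% ± 0.280 in WT and 11.9% ± 3.22 in KO (SD, n = 2 each). The difference of 7.29 percentage points had an exact permutation p = 0.333 (2-sided), the smallest that 2 against 2 allows. Total peak number also separated the groups, with fewer peaks in KO, and its part in the result was not tested.

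Replicate agreement of desert peaks was like that of other peaks in WT 2. Of its desert peaks 85.7% met a peak of WT 1, against 86.0% of its other peaks. In WT 1, whose list is longer, 56.1% of desert peaks and 61.8% of other peaks met a peak of WT 2. In KO 1, 43.4% of desert peaks and 34.1% of other peaks met a peak of KO 2, and in KO 2 39.0% and 47.8% met one of KO 1, so the KO libraries went opposite ways. With the set taken from a single WT list, 1206 desert regions qualified without WT 2 and 788 without WT 1.

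The regions were unevenly spread over chromosomes. Chromosome 10 held 81, chromosome 15 held 78 and chromosome 12 held 59, while chromosome 7 held 6 and chromosome 11 held 3. Per Mb of desert, chromosome 15 had 2.48 and chromosome 11 had 0.119. Chromosome 15 included both Myc deserts, with 32 and 11 members, and chromosome 10 included the Tnfaip3 and Btg1 deserts.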

How the data were processed

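Smad4 ChIP-seq was measured in 4 libraries, 2 WT and 2 KO. The authors deposited 1 peak list per library, with peak coordinates (chromosome, start, end) and no score, so lists were not pooled. Per the submitters' processing notes, the tools were HOMER 4.8.3, Bowtie and Trim Galore, on the build mm10; their roles, the thresholds and the use of input were not given in the sources used here. Read depth is unknown.

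Positions are 1-based on mm10. Gene bounds came from a RefSeq table on GRCm38.p6, with 21779 of its 21900 coding genes used; genes starting below 3 Mb were left out on all chromosomes but Y, since scaffold coordinates stand there. A desert is a gap between neighbouring coding genes, less 100 kb at each side. Strand came from the RefSeq promoter table and is unknown for genes not in it. Intervals are exact 95% Clopper-Pearson intervals for shares and order-statistic intervals for medians. They cover counting error only, and neighbouring regions are not independent. Group shares were compared by an exact permutation test over libraries, 2-sided. Interval handling was tested on simulated data.

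The 11 gene lists, with 246 genes, and the members were chosen with earlier results of these data known. The text names the 10 widest regions by summed WT peak width, the 5 farthest, the fullest deserts, up to 4 regions per list and the widest KO-called regions; other genes were named after their values were seen. Motifs inside members were not counted, since no genome was used here. Alternatives were other overlap rules, distances, gene sets, run gaps and left-out libraries. Replicate numbers do not pair the samples: the labels give no shared animal or batch, and there are 2 pairs. Python 3.11.15, numpy 2.4.6, pandas 2.3.3, SciPy 1.17.1 and matplotlib 3.10.9 were used.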

Additional observations from a re-analysis of the deposited data

How the results depend on the processing

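Of 83 alternative values, 60 were labelled the same as the reported ones, 23 were labelled moved and none reversed. A label of the same did not always mean a close value. The KO minus WT difference in the desert share of peaks kept its direction but not its size. It was 10.3 percentage points at a limit of 50 kb and 3.67 at 200 kb. With noncoding genes counted as genes it was 1.02. Requiring an overlap of 50% of both peaks gave 70.0% of members within 50 kb of another and a median log2 WT peak width ratio of 0.25; matching centres within 100 bp gave a desert share of 4.57%. A limit of 50 kb gave 1191 regions (7.62% of WT-only regions). A limit of 200 kb gave 246 (1.57%), of which 69.5% lay within 50 kb of another and 26.4% met a noncoding gene, with 14 list genes nearest to a member against 26. Counting noncoding genes as genes gave 41 regions (0.262%). Members within 20 kb and 100 kb of another were 60.2% and 81.2%. Leaving out 1 library gave 670 to 1206 regions, shares of 4.18% to 4.63%, median widths of 384 to 603 bp, 74.7% to 82.4% within 50 kb of another, 5.56% to 7.73% of desert regions with a KO peak, and KO minus WT differences of 5.01 to 9.56 percentage points. Without 10 regions of antigen receptor loci, Rnls and Rn18s-rs5, an alternative chosen after seeing the data, 640 remained. Pairing libraries by replicate number as a block left the difference at 7.29 percentage points (exact permutation p = 0.5, the smallest that 2 pairs allow). With 1 WT library no width ratio could be computed, and the count of motifs inside members was not run. Unknown read depth limits all counts of peaks.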

Other observations

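Deserts on chromosome X, which the autosomal set leaves out, held 13 reproducible WT regions, and all 13 met no KO peak, where the share was 90.9% in autosomal deserts and 96.2% on all autosomes. Both WT libraries were female, KO 1 was mixed and KO 2 was male, so X dosage and genotype cannot be told apart. Desert peaks on X numbered 26 in WT 1, 24 in WT 2, 0 in KO 1 and 1 in KO 2. The widest lay 118 kb from Tmsb4x, which encodes the actin-binding peptide thymosin β4, at chrX:167088633-167089704, with peaks of 836 and 1072 bp in WT 1 and WT 2. Another 2 regions of the same cluster lay 115 and 105 kb from the gene. Bcor, which encodes a co-repressor that binds BCL6, had 2 regions at 191 and 197 kb, whose peaks measured 640 and 240 bp in WT 1, against 242 and 334 bp in WT 2. Peaks on unplaced scaffolds numbered 6, 5, 5 and 2 in WT 1 and WT 2 and KO 1 and KO 2.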
